A study of Homo sapiens with 6 samples.

Results

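The transcripts of 9 receptor tyrosine kinases that can take over from EGFR were followed in the brain-metastatic lung cancer cells PC9-BrM3. They were chosen by name, as receptors known to keep EGFR-driven lung cancer cells alive without EGFR. The rule uses no measured value, but earlier results of these data were known when the choice was made. The 9 genes, MET, AXL, IGF1R, INSR, FGFR1, FGFR2, FGFR3, EPHA2 and DDR1, were all found among the 58735 genes of the expression table, and 7 of them were among the 13150 genes tested. RNA-seq was available for 3 BrM3-shAKR1B10 libraries, in which AKR1B10 was silenced by shRNA vector 1, and for 3 BrM3-shNC libraries with a negative control shRNA, whose genotype the labels give as WT. PC9-BrM3 was raised from the lung adenocarcinoma line PC9 by 3 rounds of injection into the left ventricle of mice and recovery from the brain. The shRNAs were delivered in the lentiviral vector LV2, and all 6 libraries came from routine culture. Only 1 of the shRNAs was sequenced, so its effects on other genes cannot be told apart from those of AKR1B10 loss. The labels do not say whether the replicates were separate cultures, so the p-values measure only the spread between these libraries.

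Receptor tyrosine kinases sit in the cell membrane, and many, though not all, dimerize only when a ligand binds. Once active they phosphorylate each other and recruit adaptors that start the RAS-MAPK and PI3K-AKT cascades. PC9 carries an activating deletion in EGFR and depends on this receptor, and lung cancer cells of this kind can escape EGFR inhibitors when another receptor feeds the same cascades. Amplified MET is the classical example, and AXL, IGF1R, fibroblast growth factor receptors and EPHA2 are known for the same role, whereas DDR1 is unusual in that collagen is its ligand.

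AKR1B10, the target of the shRNA, was 108.5 ± 1.52 FPKM in BrM3-shAKR1B10 against 782 ± 14.6 FPKM in BrM3-shNC (SD, n = 3 per group), a log2 fold change of -2.85. Here FPKM is the number of fragments on a gene per kilobase of its length, scaled by a size factor for each library. This size was not the plain total of reads on genes, since for BrM3-shNC replicate 1 it was 18350584 against 18709028 reads. The libraries held from 16964504 to 18709028 reads on genes, and 3 reads, taken as the smallest level the depth can show, were worth between 0.163 and 0.177 FPKM on a gene of 1000 bases. All 6 epithelial markers listed were at or above 1 FPKM, with a summed level between 3167 and 3253 FPKM in BrM3-shAKR1B10 and between 2986 and 3348 FPKM in BrM3-shNC. The lung lineage markers NKX2-1, NAPSA, SFTPB and SFTPC were all under 1 FPKM, with sums of at most 0.927 FPKM, so the defining markers of lung epithelium were near absent from this lung cancer line. No leukocyte, fibroblast or neural marker had a mean of 1 FPKM over the 6 libraries, although the leukocyte marker CD14 was above 1 FPKM in BrM3-shNC replicate 3, on 38 reads. Of the 3 endothelial markers, CDH5 (VE-cadherin) was 1.85 ± 0.0964 FPKM in BrM3-shAKR1B10 against 1.14 ± 0.0460 FPKM in BrM3-shNC. With a log2 fold change of 0.65 (limma adjusted p = 0.0039), CDH5 was called higher by the thresholds given below. PECAM1 and VWF stayed under 1 FPKM and were not tested. PECAM1 lay the other way from CDH5, with 0.272 ± 0.0345 FPKM in BrM3-shAKR1B10 against 0.438 ± 0.0661 FPKM in BrM3-shNC (SD, n = 3 per group), without overlap between the groups. The summed endothelial markers ranged from 2.10 to 2.37 FPKM in BrM3-shAKR1B10 and from 1.52 to 1.79 FPKM in BrM3-shNC, and their part in the receptor values was not tested. In bulk RNA, fewer cells with a transcript and less of it per cell cannot be told apart.

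The start regions of MET, AXL and EPHA2 are shown because these 3 receptors had the largest differences between the groups. Each sequence runs from 250 bases before to 50 bases after the RefSeq start site (GRCh38.p14), 5′ to 3′ on the strand of the gene. Capitals mark the GC box GGGCGG, the letters bound by SP1-type factors, searched on both strands. MET lies at chr7:116671946-116672245 on the plus strand, AXL at chr19:41218973-41219272 on the plus strand and EPHA2 at chr1:16156020-16156319 on the minus strand.
MET: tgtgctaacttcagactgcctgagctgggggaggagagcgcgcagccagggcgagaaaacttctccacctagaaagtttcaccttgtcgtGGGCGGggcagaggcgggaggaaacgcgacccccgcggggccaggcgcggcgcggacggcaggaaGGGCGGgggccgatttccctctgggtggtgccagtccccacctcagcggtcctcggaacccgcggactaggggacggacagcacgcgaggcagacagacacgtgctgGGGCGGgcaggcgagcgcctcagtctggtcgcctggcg
AXL: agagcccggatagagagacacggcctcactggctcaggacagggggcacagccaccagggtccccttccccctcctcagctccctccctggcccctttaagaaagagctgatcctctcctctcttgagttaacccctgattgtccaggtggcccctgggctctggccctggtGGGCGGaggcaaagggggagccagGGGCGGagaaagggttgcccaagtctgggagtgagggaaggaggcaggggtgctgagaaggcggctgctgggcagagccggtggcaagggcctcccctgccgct
EPHA2: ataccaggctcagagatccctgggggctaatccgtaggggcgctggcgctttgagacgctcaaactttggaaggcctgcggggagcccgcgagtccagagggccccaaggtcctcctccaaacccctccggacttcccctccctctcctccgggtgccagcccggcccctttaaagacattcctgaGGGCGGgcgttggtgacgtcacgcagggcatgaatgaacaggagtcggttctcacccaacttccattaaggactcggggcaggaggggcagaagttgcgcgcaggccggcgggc
The MET window held 3 GC boxes, the AXL window held 2 and the EPHA2 window held 1. Windows were read for 8 of the 9 receptors, and all but that of DDR1 held a GC box, with 2 in IGF1R, 4 in INSR, 5 in FGFR2 and 8 in FGFR3. Among all 35116 RefSeq windows of this length, 44.95% held 1 or more. The receptor windows were also rich in G and C, from 62.3% in DDR1 to 86.3% in FGFR3, against a median of 58.7% over all windows. None of the 8 held the AP-1 letters TGANTCA (7.71% of all windows) or the TATA box TATAAA (11.5%). The E-box CACGTG, present in 7.26% of all windows, was found once, in MET. MET, whose transcript was higher in BrM3-shAKR1B10, and AXL, whose transcript was lower, thus had more than 1 GC box each and no TATAAA in the window. These matches are letters only, since binding was not analysed here.

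The receptors spanned a wide range of levels. FPKM divides by 1 annotated length per gene, such as 9122 bases for DDR1 with 58 transcripts and 4159 bases for EPHA2 with 4. The length of the transcripts expressed is not known, so levels, ranks and shares compared between genes are approximate, FGFR1 (13842 bases, 43 transcripts) included. On this scale the order in BrM3-shNC was DDR1, EPHA2, MET, FGFR3, AXL, IGF1R, INSR, FGFR1 and FGFR2. Over the 3 libraries, the values of no 2 neighbours in this order overlapped. The order in BrM3-shAKR1B10 was the same except that AXL ranked below IGF1R, again without overlap between neighbours. AXL was at least 3.64 FPKM and IGF1R at most 3.07 FPKM in BrM3-shNC, whereas in BrM3-shAKR1B10 IGF1R was at least 2.41 FPKM and AXL at most 2.06 FPKM. Among the 13150 genes tested, the mean level of DDR1 stood at percentile 93.5, EPHA2 at 91.1, MET at 83.0 and FGFR3 at 67.5. AXL stood at percentile 27.7, IGF1R at 25.8 and INSR at 13.9, and FGFR1 and FGFR2 were under the mean of 1 FPKM required for a test.

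**Figure D1:**
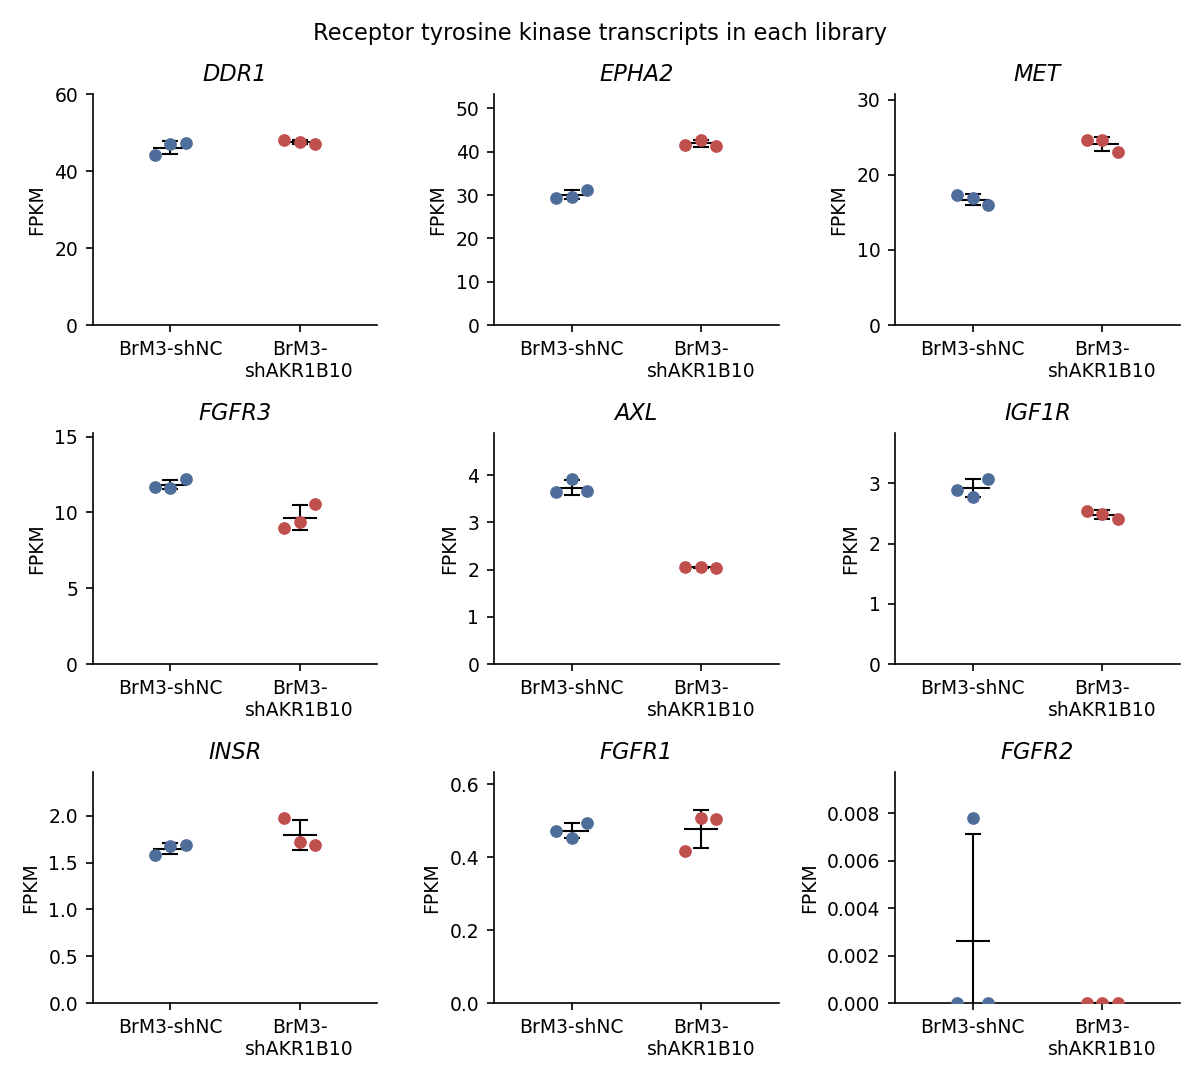
FPKM of each of the 9 receptors (vertical axes, starting at 0 and scaled for each gene) in the 3 BrM3-shNC libraries (blue) and the 3 BrM3-shAKR1B10 libraries (red), with points for libraries and bars for the mean ± SD. MET and EPHA2 lie higher and AXL, FGFR3 and IGF1R lie lower in every BrM3-shAKR1B10 library, while DDR1 and FGFR1 overlap and FGFR2 shows a single read.

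Of the 7 receptors tested, AXL was called lower and MET was called higher in BrM3-shAKR1B10, where a call needed an adjusted p under 0.05 from limma (Benjamini-Hochberg over 13150 genes) and an absolute log2 fold change above 0.5. Across all genes tested, 7.45% were called lower, 5.83% higher and 13.3% either way. The lower calls were 980 and the higher calls 766, and with TPM scaling this balance turned, to 873 lower and 902 higher. By the adjusted p alone, 3 receptors were lower (AXL, FGFR3 and IGF1R) and 2 were higher (MET and EPHA2), against 23.1% and 19.4% of all genes and 42.5% either way. The 3 values of one group all lay to one side of the other group's for 6 of the 7 receptors, that is for AXL, FGFR3 and IGF1R below and MET, EPHA2 and INSR above the controls, and for 54.7% of all genes tested (29.2% lower and 25.5% higher). The median log2 fold change was 0.05 over the 7 receptors and -0.01 over all genes. An exact permutation test of 3 libraries against 3 cannot go below p = 0.10, the value it gave for each of those 6 receptors, while DDR1 gave 0.20 (two-sided). Fold changes are on the log2(FPKM + 0.1) scale, which understates the change of low genes.

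**Figure D2:**
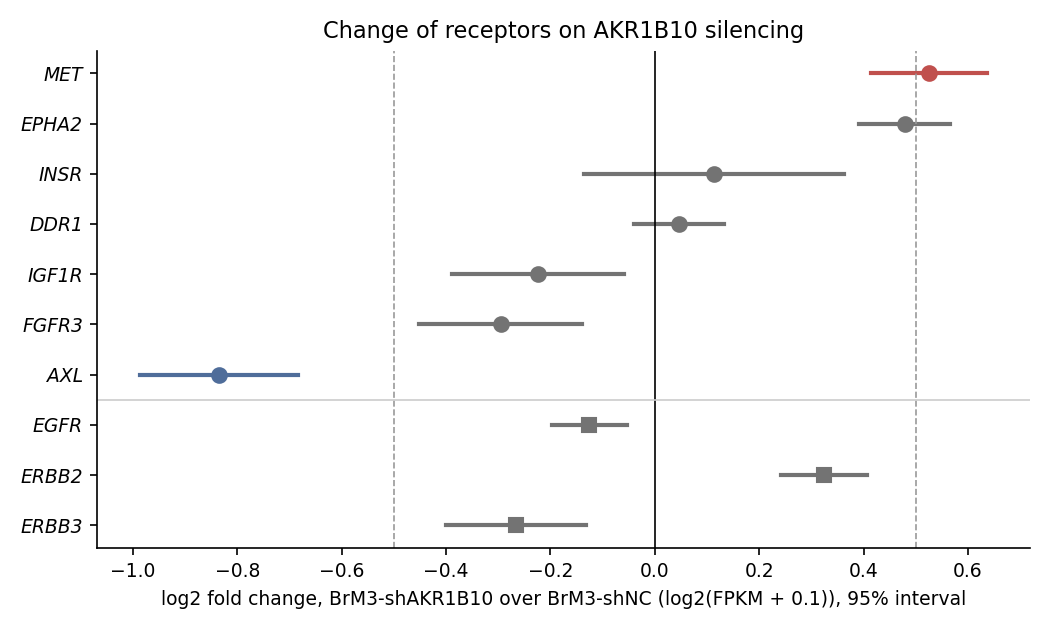
Log2 fold change of BrM3-shAKR1B10 over BrM3-shNC with its 95% interval from limma (horizontal axis) for the 7 tested receptors (circles) and for EGFR, ERBB2 and ERBB3 (squares), with the threshold of 0.5 dashed. MET (red, 0.53) and AXL (blue, -0.84) lie past it, and the point of EPHA2 (0.48) lies just inside.

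MET (ENSG00000105976), the receptor of hepatocyte growth factor, is transcribed from the plus strand of chr7:116672390-116798386 (GRCh38, GENCODE 29), and its coding transcript ENST00000318493 has 21 exons. MET was 24.6, 24.6 and 23.0 FPKM in the 3 BrM3-shAKR1B10 libraries and 17.3, 16.9 and 15.9 FPKM in the 3 BrM3-shNC libraries. Each silenced library was above each control library, and the means were 24.1 ± 0.950 and 16.7 ± 0.690 FPKM (SD, n = 3 per group), an increase of 44.2%. MET rose by a log2 fold change of 0.53 (95% interval 0.41 to 0.64, standard error 0.0467, limma adjusted p = 2.76e-04). Between 2013 and 3128 reads per library lay on MET, so counting error (1.98%) was smaller than the spread between replicates (4.04%). The call rested on BrM3-shNC replicate 3, the lowest control value, since without it the log2 fold change was 0.49 and missed the threshold of 0.5. Of all genes tested, 84.7% had a smaller absolute log2 fold change.

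EPHA2 (ENSG00000142627), an ephrin receptor that can also signal without its ligand, lies on the minus strand of chr1:16124337-16156087, and its coding transcript ENST00000358432 has 17 exons. The 3 BrM3-shAKR1B10 libraries had 41.6, 42.8 and 41.4 FPKM of EPHA2, and the 3 BrM3-shNC libraries had 29.4, 29.6 and 31.3 FPKM. The groups did not overlap, and the mean was 41.9 ± 0.720 against 30.1 ± 1.05 FPKM (SD, n = 3 per group), or 39.4% higher. Its log2 fold change of 0.48 (95% interval 0.39 to 0.57, limma adjusted p = 1.44e-04) passed the adjusted p but not the threshold on the fold change. It was 0.52 with TPM scaling, 0.54 with quantile scaling and 0.51 without BrM3-shNC replicate 3, and EPHA2 was called higher in each. MET and EPHA2 therefore lay on either side of the threshold with intervals that overlapped. An antisense gene on the opposite strand, AL451042.2, held between 9 and 26 reads per library, against at least 2080 on EPHA2, and their reads cannot be told apart if counting ignored the strand.

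AXL (ENSG00000167601), a receptor of the TAM family that binds GAS6, lies on the plus strand of chr19:41219203-41261766, and its coding transcript ENST00000301178 has 20 exons. AXL was 2.06, 2.05 and 2.03 FPKM in the BrM3-shAKR1B10 libraries and 3.64, 3.92 and 3.66 FPKM in the BrM3-shNC libraries. The highest silenced value was well under the lowest control value, and the means were 2.05 ± 0.0148 and 3.74 ± 0.160 FPKM (SD, n = 3 per group). AXL fell by 45.2%, with a log2 fold change of -0.84 (95% interval -0.99 to -0.68, standard error 0.0633, limma adjusted p = 1.44e-04). It had the largest absolute change of the 7 tested receptors, above that of 94.1% of all genes tested, and ranked 393 from the lowest log2 fold change. The values rest on 188, 191 and 186 reads in BrM3-shAKR1B10 and on 344, 342 and 344 reads in BrM3-shNC. The expected counting error at this depth (6.13%) was larger than the observed spread between replicates (3.07%), so the SD of AXL understates its counting error. The log2 fold change of AXL was between -0.85 and -0.80 whichever library was left out, and AXL was called in each of these fits.

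Of the other TAM receptors, TYRO3 was also called lower, with 1.69, 1.61 and 1.77 FPKM in BrM3-shAKR1B10 and 2.70, 2.17 and 2.49 FPKM in BrM3-shNC. The log2 fold change of TYRO3 was -0.51 (limma adjusted p = 0.0090), and the call was lost without BrM3-shAKR1B10 replicate 2, without BrM3-shNC replicate 1 or without BrM3-shNC replicate 3, with TPM scaling and with a pseudocount of 1. MERTK had a mean of 0.155 FPKM against 0.111 FPKM on 9 to 14 reads and was not tested. AXL made up 52.7% ± 0.989 of the summed FPKM of the 3 TAM receptors in BrM3-shAKR1B10 and 59.4% ± 3.53 in BrM3-shNC (SD, n = 3 per group), without overlap between the groups.

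The fibroblast growth factor receptors were represented mainly by FGFR3 (ENSG00000068078, plus strand of chr4:1793293-1808872). FGFR3 was 8.99, 9.39 and 10.6 FPKM in BrM3-shAKR1B10 and 11.7, 11.6 and 12.2 FPKM in BrM3-shNC, without overlap. The log2 fold change was -0.30 (95% interval -0.45 to -0.14, limma adjusted p = 0.0117), and the decrease of 18.5% did not reach the threshold on the fold change. FGFR1 (ENSG00000077782, minus strand of chr8:38400215-38468834) was 0.417, 0.508 and 0.505 FPKM in BrM3-shAKR1B10 and 0.472, 0.453 and 0.495 FPKM in BrM3-shNC, on 102 to 127 reads. Its groups overlapped, its means were 0.477 ± 0.0518 and 0.473 ± 0.0210 FPKM (SD, n = 3 per group), and it was under the level required for a test. LETM2, which overlaps FGFR1 on the opposite strand, held 44 to 74 reads, and the sources used here do not say whether counting used the strand. FGFR2 (ENSG00000066468, minus strand of chr10:121478334-121598458) had 0 reads in 5 libraries and 1 read in BrM3-shNC replicate 2, where 3 reads correspond to at most 0.0234 FPKM. The transcript of FGFR2 was therefore not detectable at this depth in either group. FGFR4, outside the list of 9, was 0.981 ± 0.169 FPKM in BrM3-shAKR1B10 against 1.40 ± 0.144 FPKM in BrM3-shNC (SD, n = 3 per group), with a log2 fold change of -0.48 that did not pass (limma adjusted p = 0.0649). FGFR4 was called lower with voom (log2 fold change -0.52, adjusted p = 0.0120), with quantile scaling and without BrM3-shAKR1B10 replicate 3, but it reached the required mean of 1 FPKM only through BrM3-shNC, so that these calls are no support for a difference. Within this family FGFR3 was thus the receptor with the highest level in both groups.

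IGF1R and INSR, the related receptors of insulin-like growth factors and insulin, can form hybrids with each other. IGF1R (ENSG00000140443, plus strand of chr15:98648539-98964530) was 2.55, 2.49 and 2.41 FPKM in BrM3-shAKR1B10 and 2.89, 2.78 and 3.07 FPKM in BrM3-shNC, or 14.9% lower on average. Its log2 fold change was -0.22 (95% interval -0.39 to -0.06, limma adjusted p = 0.0383). A block on the replicate number gave an adjusted p of 0.0902, and over all alternatives it ranged from 0.00477 to 0.119, with values above 0.05 for every library left out in turn. INSR (ENSG00000171105, minus strand of chr19:7112255-7294034) was 1.98, 1.72 and 1.69 FPKM in BrM3-shAKR1B10 and 1.58, 1.68 and 1.68 FPKM in BrM3-shNC. The lowest silenced value and the highest control value of INSR nearly touched, and the log2 fold change of 0.11 (95% interval -0.14 to 0.36) did not pass (limma adjusted p = 0.418). The ratio of INSR to IGF1R was 0.723 ± 0.0468 in BrM3-shAKR1B10 and 0.566 ± 0.0335 in BrM3-shNC (SD, n = 3 per group), without overlap between the groups.

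DDR1 (ENSG00000204580, plus strand of chr6:30876421-30900156), the collagen receptor of epithelial cells, had the highest level of the 9 receptors in every library. It was 48.1, 47.5 and 47.2 FPKM in BrM3-shAKR1B10 and 44.1, 47.0 and 47.2 FPKM in BrM3-shNC, and the groups overlapped. The log2 fold change was 0.05 (limma adjusted p = 0.343), with a 95% interval from -0.04 to 0.13. With 7249 to 7857 reads per library, the counting error was 1.15%, against a spread between replicates of 2.73%. The other discoidin receptor, DDR2, which is typical of mesenchymal cells, had 5 to 13 reads and a mean under 0.05 FPKM in both groups.

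Runs of 50 bases shared with transcripts of other genes made up at most 1.70% of the transcript sequence of any of the 9 receptors, the value of FGFR1. They made up 0.252% of MET, 1.05% of AXL and 0.241% of EPHA2, and no receptor of the list shared such a run with another. The table holds 1 value per gene, so splice forms of the receptors were not separated, and protein and phosphorylation were not analysed here.

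The 9 receptors together reached 130.4, 131.0 and 128.8 FPKM in BrM3-shAKR1B10 and 111.0, 113.9 and 115.5 FPKM in BrM3-shNC. Their makeup differed between the groups as well as their sum. EPHA2 made up 32.2% ± 0.368 of the sum in BrM3-shAKR1B10 and 26.5% ± 0.560 in BrM3-shNC, and MET made up 18.5% ± 0.580 and 14.7% ± 0.884 (SD, n = 3 per group). DDR1, whose own level overlapped, went from 40.6% of the sum in BrM3-shNC to 36.6% in BrM3-shAKR1B10, FGFR3 from 10.4% to 7.43% and AXL from 3.30% to 1.58%. None of these shares overlapped between the groups. Shares of 1 sum depend on each other, so they are given as a description. The ratio of MET to AXL was 11.94, 11.99 and 11.29 in BrM3-shAKR1B10 and 4.74, 4.31 and 4.36 in BrM3-shNC.

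**Figure D3:**
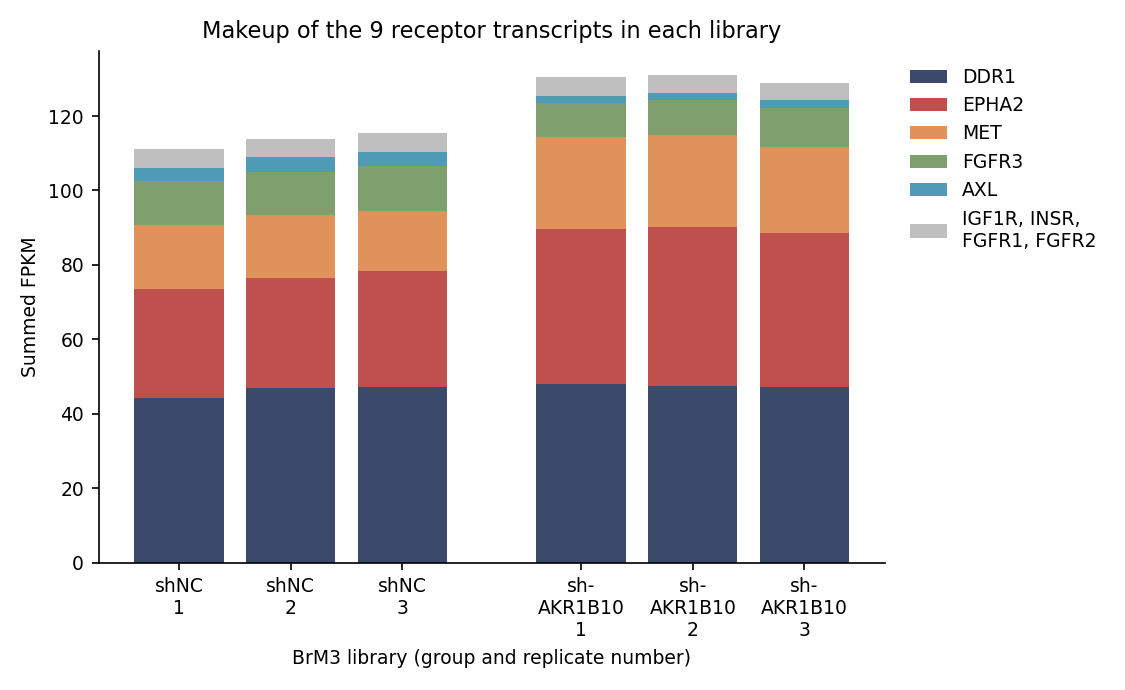
Summed FPKM of the 9 receptors (vertical axis) in each of the 6 libraries (bars), divided by receptor. DDR1 is the largest part of every bar, the parts of EPHA2 and MET are larger and those of FGFR3 and AXL smaller in the 3 BrM3-shAKR1B10 libraries, and the sum is at least 128.8 FPKM there and at most 115.5 FPKM in BrM3-shNC.

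EGFR itself, the receptor that the 9 can bypass, was 80.0 ± 0.946 FPKM in BrM3-shAKR1B10 against 87.3 ± 1.96 FPKM in BrM3-shNC (SD, n = 3 per group), with a log2 fold change of -0.13 (limma adjusted p = 0.0154), far inside the threshold. In FPKM, with the limit of gene length given above, EGFR thus stayed above each of the 9 receptors in both groups. MET reached 30.1% ± 1.21 of the EGFR level in BrM3-shAKR1B10 and 19.1% ± 0.383 in BrM3-shNC, and EPHA2 reached 52.4% ± 0.491 and 34.5% ± 1.97 (SD, n = 3 per group). For AXL the values were 2.57% ± 0.0400 and 4.29% ± 0.203, and for FGFR3, whose groups overlapped on this scale, 12.1% ± 1.03 and 13.6% ± 0.658. The EGFR partners ERBB2 and ERBB3 differed in opposite directions and neither was called. ERBB2 was 14.2 ± 0.215 against 11.3 ± 0.224 FPKM (log2 fold change 0.32, limma adjusted p = 5.8e-04). ERBB3, which signals through its partners, was 11.5 ± 0.414 against 13.9 ± 0.878 FPKM (log2 fold change -0.27, limma adjusted p = 0.0098).

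Of 35 genes for ligands of the 9 receptors, 9 were tested, of which 3 were called lower and 0 higher, against 7.45% and 5.83% of all genes. By the adjusted p from limma alone 3 were lower and 2 higher, against 23.1% and 19.4% of all genes, at an unadjusted p under 0.05 there were 4 and 3 (27.3% and 23.8% of all genes), and limma's voom on recovered reads called 3 and 0 (7.89% and 6.0% of all genes). All 3 called ligands were collagen chains, ligands of DDR1. COL1A1 was 1.22 ± 0.0963 FPKM in BrM3-shAKR1B10 against 1.98 ± 0.0302 FPKM in BrM3-shNC (log2 fold change -0.67, adjusted p = 0.0032). COL5A1 was 1.28 ± 0.0407 against 1.92 ± 0.115 FPKM (log2 fold change -0.56, adjusted p = 0.0059), and COL4A2 was 2.06 ± 0.0702 against 3.02 ± 0.350 FPKM (log2 fold change -0.52, adjusted p = 0.0061, SD, n = 3 per group). With a pseudocount of 1 none of the 3 was called, and COL4A2 was also lost without BrM3-shAKR1B10 replicate 1 or without BrM3-shNC replicate 3. COL4A1, the partner chain of COL4A2, had a log2 fold change of -0.21 that did not pass (limma adjusted p = 0.0562).

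The ligands of the receptors that differed most were not called. HGF, the ligand of MET, had 0 reads in all 6 libraries, which allows at most 0.0181 FPKM, a limit for counting error only. GAS6, the ligand of AXL, was 4.77 ± 0.0720 FPKM in BrM3-shAKR1B10 against 4.40 ± 0.290 FPKM in BrM3-shNC (log2 fold change 0.11, limma adjusted p = 0.171). Among the ephrins that bind EPHA2, EFNA5 was 7.42 ± 0.424 against 5.36 ± 0.518 FPKM (log2 fold change 0.46, limma adjusted p = 0.0041), and it was called higher with TPM scaling, without BrM3-shAKR1B10 replicate 2 or without BrM3-shNC replicate 3. EFNA1 was 21.3 ± 0.526 against 18.7 ± 0.642 FPKM (log2 fold change 0.19, limma adjusted p = 0.0091), and EFNA4 (0.37, adjusted p = 0.0951) and EFNA3 (0.11, adjusted p = 0.549) did not pass. IGF1 and INS had 0 reads in all 6 libraries, and IGF2, at 0.378 FPKM in BrM3-shAKR1B10 against 0.454 FPKM in BrM3-shNC, was too low for a test. No fibroblast growth factor on the list had a mean of 1 FPKM, the level required for a test. Below that level FGF19 was 0.199 ± 0.0241 against 0.636 ± 0.0845 FPKM on 8 to 30 reads, and FGF18 was 0.404 ± 0.104 against 0.101 ± 0.0885 FPKM on 0 to 17 reads (SD, n = 3 per group), both without overlap and in opposite directions. FGF17, at 0.0683 against 0.0166 FPKM on 0 to 5 reads, also did not overlap. How often genes this low do not overlap was not computed, so these values are a description only. With no filter on low values FGF19 was called lower, which made 4 ligands lower, against 1088 of the 31583 genes in that fit.

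A list of 29 proteases, co-receptors and binding proteins that act on these receptors and ligands had 23 tested genes, of which 1 was called lower and 2 were called higher, against 7.45% and 5.83% of all genes. By the adjusted p from limma alone, 6 were lower and 11 higher, against 23.1% and 19.4% of all genes, and the median log2 fold change was 0.21, against -0.01 over all genes. IGFBP3, which binds insulin-like growth factors outside the cell, was 12.8 ± 0.393 FPKM in BrM3-shAKR1B10 against 20.2 ± 0.581 FPKM in BrM3-shNC (log2 fold change -0.66, adjusted p = 6.3e-05). SDC4, a heparan sulfate proteoglycan and co-receptor of fibroblast growth factors, was 131.5 ± 3.77 against 88.4 ± 2.31 FPKM (log2 fold change 0.57, adjusted p = 6.6e-05). PCSK6, a convertase of the furin family, was 2.91 ± 0.252 against 1.73 ± 0.0921 FPKM (log2 fold change 0.71, adjusted p = 0.0013, SD, n = 3 per group). Among those that passed the adjusted p only, chosen after their values were seen, SPINT1, an inhibitor of the proteases that activate hepatocyte growth factor, had a log2 fold change of 0.48 (limma adjusted p = 7.5e-04). SPINT1 was called higher with TPM or quantile scaling, without BrM3-shAKR1B10 replicate 2 or without BrM3-shNC replicate 3. CD44, a co-receptor of MET, had -0.38 (adjusted p = 1.3e-04). The other tested IGFBP genes went both ways and were not called. IGFBP5 (0.48, adjusted p = 6.7e-04) and IGFBP4 (0.28, adjusted p = 0.0131) were higher, and IGFBP6 (-0.38, adjusted p = 0.0197) was lower. IGFBP2 (-0.04, adjusted p = 0.813) did not pass. IGFBP5 was called higher with TPM scaling and without BrM3-shNC replicate 1.

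None of the 30 adaptors, substrates and phosphatases downstream was called, of which 25 were tested, against 13.3% of all genes called either way. By the adjusted p from limma alone 4 were lower and 9 higher, against 23.1% and 19.4% of all genes, at an unadjusted p under 0.05 there were 5 and 10 (27.3% and 23.8% of all genes), and voom called 0 in either direction (7.89% of all genes lower and 6.0% higher). The 10 include GAB2, at 1.26 FPKM in BrM3-shAKR1B10 against 0.941 FPKM in BrM3-shNC. GAB2 reached the required mean of 1 FPKM only through BrM3-shAKR1B10 and is no support for a difference. The lowest and the highest log2 fold change, picked after the values were seen, were those of PTPN11 (-0.44, adjusted p = 4.3e-04), the phosphatase SHP2 that links receptors to RAS, and SOCS3 (0.40, adjusted p = 0.0302), a feedback inhibitor of cytokine signalling. All 25 thus lay inside the threshold of 0.5 in both directions.

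Among 49 other receptor tyrosine kinases, 20 were tested and 10 had 0 reads in all libraries. Called lower were 2 of the 20, EPHB6 and TYRO3, and called higher were 2, AATK and STYK1, against 7.45% and 5.83% of all genes, and the median log2 fold change was -0.06. By the adjusted p from limma alone 6 were lower and 5 higher, against 23.1% and 19.4% of all genes. With voom on recovered reads 3 were called lower, FGFR4 in addition, which was tested only through its level in BrM3-shNC, and 2 higher, against 7.89% and 6.0% of all genes. EPHB6, an ephrin receptor without kinase activity, was 9.01 ± 0.162 FPKM in BrM3-shAKR1B10 against 13.6 ± 0.782 FPKM in BrM3-shNC (log2 fold change -0.59, adjusted p = 2.3e-04). STYK1, a kinase-like membrane protein, was 2.89 ± 0.104 against 1.71 ± 0.364 FPKM (log2 fold change 0.74, adjusted p = 0.0088). AATK, the apoptosis-associated tyrosine kinase, was 1.96 ± 0.150 against 0.766 ± 0.0343 FPKM (SD, n = 3 per group), so that it reached the required mean of 1 FPKM only through BrM3-shAKR1B10. Its call is therefore no support for a difference, and AATK is also among the higher genes by the adjusted p alone and with voom. Without AATK, 1 kinase of the list, STYK1, was called higher.

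**Figure D4:**
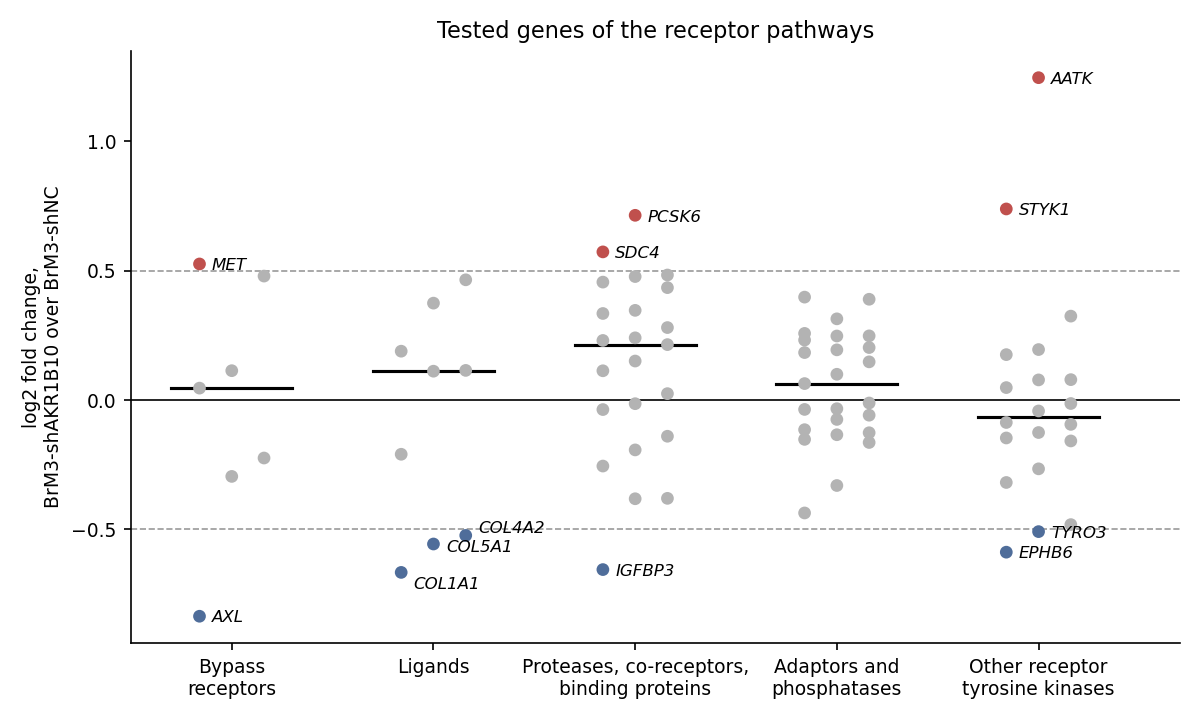
Log2 fold change of BrM3-shAKR1B10 over BrM3-shNC (vertical axis) of every tested gene of the 9 receptors, their ligands, the proteases, co-receptors and binding proteins, the adaptors and phosphatases and the other receptor tyrosine kinases. Points are genes, red where called higher, blue where called lower and gray otherwise, black bars are medians, and dashed lines mark the threshold of 0.5. The 3 called ligands are collagen chains, and no adaptor lies past the threshold.

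Genes with the profile most like that of a called receptor were sought among 10776 protein-coding genes tested, by the Euclidean distance between mean-centred log2 values over the 6 libraries. Nearest to MET were ERLEC1 (distance 0.0566), ACKR2 (0.0620) and ITM2B (0.0643), with log2 fold changes between 0.53 and 0.56. Nearest to AXL were HMGB3 (0.0774), MDC1 (0.0791) and CPNE2 (0.0860), with log2 fold changes between -0.86 and -0.78. The 6 libraries form 2 groups, so this likeness rests mainly on the size of the difference between them.

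The receptor values kept their direction across the alternatives in processing. The log2 fold change of MET lay between 0.49 and 0.57 and that of EPHA2 between 0.46 and 0.54. AXL lay between -0.86 and -0.64, with the smallest size at a pseudocount of 1, where AXL was still called lower.

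**Figure D5:**
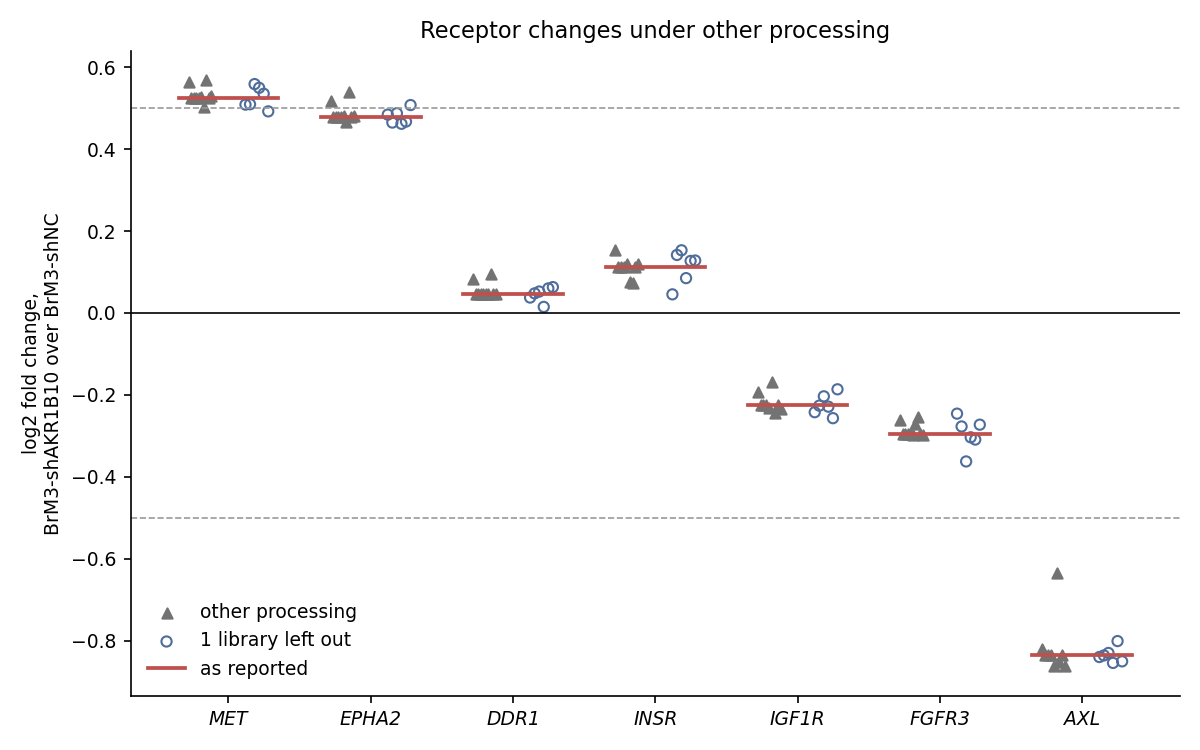
Log2 fold change of the 7 tested receptors (vertical axis) as reported (red lines), under other processing (triangles) and with 1 library left out (open circles), with the threshold of 0.5 dashed. MET and EPHA2 sit close to the upper threshold, with MET at 0.49 without 1 control library, while AXL stays past the lower threshold throughout.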

How the data were processed

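RNA-seq was measured in 3 BrM3-shAKR1B10 and 3 BrM3-shNC libraries, grouped and numbered by the sample labels. The authors purified mRNA with poly-T beads, removed reads of low quality, aligned the rest with HISAT2 2.0.5, counted them with featureCounts 1.5.0-p3 (versions as in the submitters' processing notes), and deposited 1 table of FPKM values with gene lengths in bases, replicates not pooled. The build and the strand setting are not given in the sources used here, but the positions of all 58735 genes match GENCODE 29 (GRCh38).

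Whole reads were recovered for 100% of values (tolerance 0.05 reads). Genes with a mean of at least 1 FPKM were compared with limma 3.58.1 in R 4.3.3 (lmFit, eBayes with a mean-variance trend) on log2(FPKM + 0.1), adjusted by Benjamini-Hochberg over 13150 genes. Calls needed an adjusted p under 0.05 and a log2 fold change beyond 0.5 in size. The script was tested on simulated data. No replicates were identical (chi-square per gene between 2.45 and 5.42).

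The receptors and the lists were chosen with earlier results of these data known. Genes named are the 9 receptors, AKR1B10, EGFR, ERBB2, ERBB3, every called gene of the lists, ligands with a mean of at least 1 FPKM and, for each called receptor, the 3 genes with the nearest profile. Others, such as FGFR4, MERTK, DDR2, HGF and the remaining ligands, SPINT1, CD44, the IGFBP genes not called, GAB2, PTPN11 and SOCS3, were named after their values were seen. For IGF2, which has more than 1 entry, the entry with more reads was used. Promoter windows are RefSeq's. Tried as alternatives were a pseudocount of 1 or 0.01, a filter at a mean of 5 FPKM or none, scaling to TPM, by median of ratios or by quantiles, eBayes with no trend, voom on recovered reads, a block on the replicate number, leaving out each library and, added after seeing the data, no threshold on the fold change. Scaling by median of ratios gave the same receptor fold changes and counts of calls as the main fit. It was therefore no separate check. Figures were drawn with matplotlib 3.10.9 in Python 3.11.15.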

Additional observations from a re-analysis of the deposited data

How the results depend on the processing

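The directions of the 7 tested receptors were kept under all alternatives in which they were tested. With each library left out in turn, 1 receptor was called lower and 1 higher in every fit, but without BrM3-shNC replicate 3 the higher one was EPHA2, not MET. AXL, IGF1R and INSR are below a mean of 5 FPKM, so that this filter left 0 receptors called lower. With TPM or quantile scaling 2 receptors were called higher, and with no threshold on the fold change 3 lower and 2 higher. Ligands called lower were 0 with a pseudocount of 1 and 0 at a mean of at least 5 FPKM, with 2 to 3 when a library was left out, and ligands called higher were 1 with TPM scaling, 2 with no fold threshold and 0 to 1 when a library was left out. Among proteases, co-receptors and binding proteins, those called higher were 4 with TPM or quantile scaling, 1 at a mean of at least 5 FPKM, 2 to 3 when a library was left out and 11 with no fold threshold, which gave 6 lower. With no fold threshold the adaptors had 4 lower and 9 higher. Of the other receptor tyrosine kinases, 1 was lower with TPM scaling, a pseudocount of 1 or a mean of at least 5 FPKM, 6 were lower and 5 higher (AATK included) with no fold threshold, 0 were higher at a mean of at least 5 FPKM, and 1 to 3 were lower when a library was left out. Over all genes, a mean of at least 5 FPKM left 532 lower and 290 higher among 7355 genes tested. TPM scaling gave 873 lower and 902 higher, and quantile scaling 976 lower and 761 higher, each among 13150 genes tested. A pseudocount of 1 left 708 lower and 497 higher, and no fold threshold gave 3044 lower and 2548 higher. Leaving out a library gave 947 to 971 lower and 656 to 759 higher. The causes of the changes with scaling were not tested. A replicate block gave 967 lower and 719 higher genes, and the same receptors, 1 lower and 1 higher, were called as without it. The labels give the numbers no shared culture, and same-numbered libraries did not deviate together from their group means (correlations of -0.0155 to 0.00388), so the numbers gave no pairing. Depth limits FGFR2, with at most 1 read per library, and the counting error of AXL. FGFR1, with 102 to 127 reads, was left out by the filter on mean FPKM.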
